A study of Mus musculus with 4 samples.

Results

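The genotype by Ly6C fraction difference of differences asks, for each gene, whether the mPGES-1 knockout label went with another change in Ly6C-hi than in Ly6C-low liver macrophages. It is the level in knockout (KO) minus wild-type (WT) Ly6C-hi cells, less the same difference in Ly6C-low cells, on the log2 scale, after each array was centred on its median gene. A negative value means that the KO label lay lower, relative to WT, in Ly6C-hi than in Ly6C-low cells. Of 22180 genes with a probe set of 1 symbol, the 5306 with a level of at least log2 6 in at least 1 array were used. The macrophages were sorted from livers of 10 WT and 10 mPGES-1-/- mice, all C57/BL6, collected 48 h after reperfusion, when blood flow had been restored to ischaemic liver. The 4 groups were WT Ly6C-hi, WT Ly6C-low, KO Ly6C-hi and KO Ly6C-low, with 1 Mouse Gene 2.0 ST array each. The sources used here give neither the number of mice pooled on an array, if any, nor how the mPGES-1 allele was made. With 1 array per group no value below has a replicate check and no test exists, because the difference of differences uses up all 4 arrays. Genes are therefore described by size and by the array that set them apart.

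mPGES-1, encoded by Ptges, makes prostaglandin E2 from the product of cyclooxygenases, and prostaglandin E2 is a lipid mediator with both inflammatory and restraining actions on macrophages. After liver injury, monocytes with abundant surface Ly6C enter from the blood, and macrophages with little Ly6C include cells matured from them and resident Kupffer cells. Neutrophils also carry Ly6C antigen, and sinusoidal endothelial cells lie against Kupffer cells and share scavenger and lectin receptors with them.

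Levels are given as deposited, in log2, in the order WT Ly6C-hi, WT Ly6C-low, labelled KO Ly6C-hi, labelled KO Ly6C-low, and differences after centring. Ptges was not lower under the KO label: it read 5.65 in WT Ly6C-hi and 5.69 in WT Ly6C-low, against 6.32 and 6.2 in the matching arrays labelled KO. The sources used here do not place its probe set (17383712) against the deletion, and probes beyond the deletion would not check the label. The genotype is therefore the label of an array, and every direction below rests on that label. Ly6c2, a gene of the sorted antigen, read 7.70, 3.84, 8.94 and 4.33, which sets both Ly6C-hi arrays above both Ly6C-low arrays, while Ly6c1 was under the log2 6 floor in all 4 arrays. The macrophage genes Csf1r, Cd68, Adgre1 and Lyz2 were at 7.77 or above in every array. The median gene lay at 6.67, 6.36, 6.17 and 6.55, and 4171, 3594, 3066 and 4159 genes reached the floor. Chemosensory receptor genes, which macrophages are not known to use, had an upper end of their central 95% at 5.38, 5.92, 6.08 and 5.53. Where a level lies in or under that range, the size of a difference that uses it is uncertain.

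The difference of differences had a median of 0.03 over genes, a robust SD of 0.71 and a range from -3.90 to 4.54. It was at +1 or more in 519 genes (9.78%) and at -1 or less in 446 (8.41%). At +2 or more there were 111 genes (2.09%), and at -2 or less 55 (1.04%). Pdhb and Ppbp lay just inside and just outside +1, and Csnk1g1 and Jam2 just inside and just outside -1. Centring fixes the balance of these counts. Without it the median gene lay at -0.67, and 164 genes were at +1 or more against 1697 at -1 or less, so that 8.81% of the genes past 1 were positive. Directions below are therefore relative to the median gene.

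More genes past 1 differed in Ly6C-hi alone than in Ly6C-low alone. Over all genes used, KO minus WT was at +1 or more in 6.28% in Ly6C-hi against 3.94% in Ly6C-low, and at -1 or less in 5.8% and 1.88%. Of the 519 positive genes, 216 had a KO minus WT difference of at least 1 in size in Ly6C-hi alone, 23 in Ly6C-low alone, 27 in both and 253 in neither. Of the 446 negative genes, 196 had it in Ly6C-hi alone, 90 in Ly6C-low alone, 11 in both and 149 in neither. In 305 of all genes used (5.75%) the genotype difference was crossed, with at least 0.5 in opposite directions in the 2 fractions. KO was higher in Ly6C-hi and lower in Ly6C-low in 215 of them (4.05%), and the reverse in 90 (1.7%). In the plot of both genotype differences, neutrophil genes mostly lie low on the Ly6C-hi axis, endothelial genes mostly to the right on the Ly6C-low axis, and inflammatory monocyte and chemosensory genes mostly high on the Ly6C-hi axis.

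**Figure D1:**
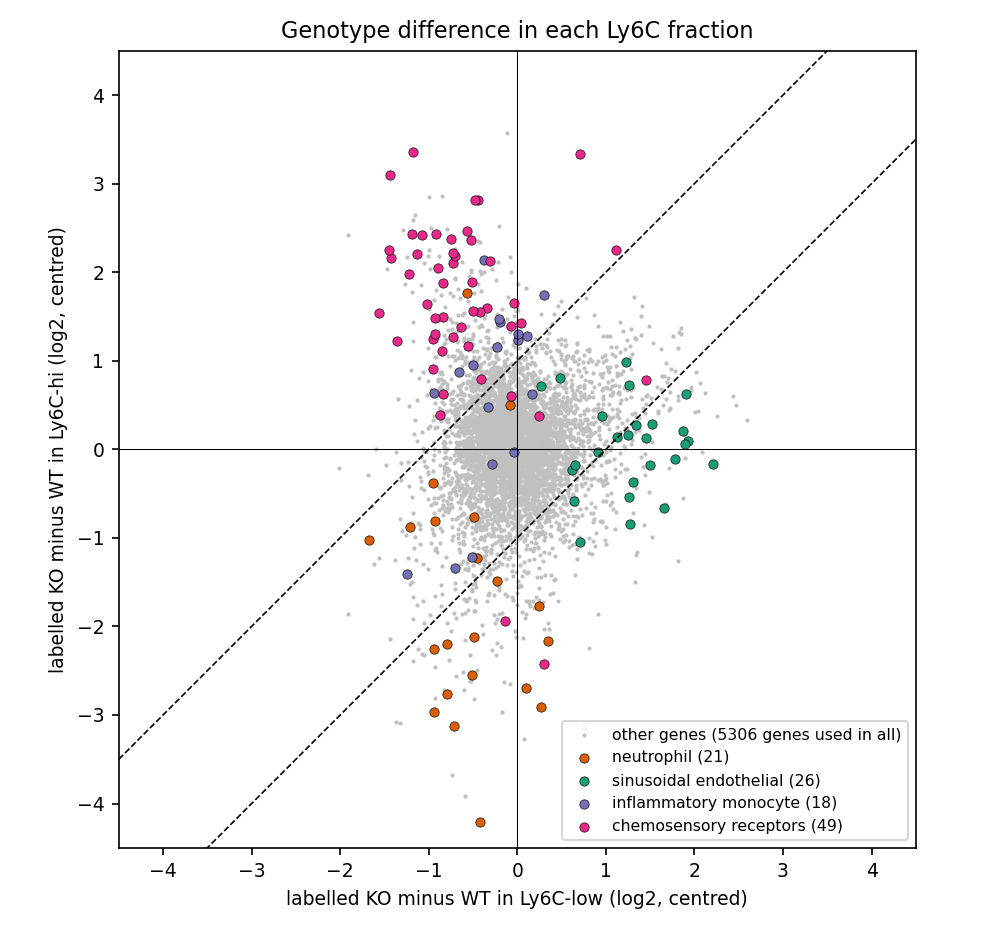
KO minus WT in Ly6C-low (x axis) against KO minus WT in Ly6C-hi (y axis), both in log2 after centring, for the 5306 genes used. Each point is 1 gene, coloured points are members of 4 gene lists, and the dashed lines mark a difference of differences of +1 (upper left) and -1 (lower right).

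An array was taken to set a gene apart where its centred level lay at least 1 from the nearest other array and farther than the whole range of the other 3. This held for 364 genes (6.86%). WT Ly6C-hi was the high array in 187 of them (3.52%), labelled KO Ly6C-low in 67 (1.26%) and labelled KO Ly6C-hi in 39 (0.735%). Lone low values came from WT Ly6C-hi in 44 genes (0.829%) and from labelled KO Ly6C-hi in 12 (0.226%). WT Ly6C-low stood alone on the high side in 7 genes (0.132%) and on the low side in 3 (0.0565%), and labelled KO Ly6C-low stood alone on the low side in 5 (0.0942%). Among the 446 genes at -1 or less, 143 were set apart by a high WT Ly6C-hi value, 36 by a high labelled KO Ly6C-low value and 10 by a low labelled KO Ly6C-hi value. The 519 positive genes were less clear cases: 64 were set apart, 35 of them by a high labelled KO Ly6C-hi value and 23 by a low WT Ly6C-hi value. Profiles of named genes from 4 such patterns are plotted over the arrays.

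**Figure D2:**
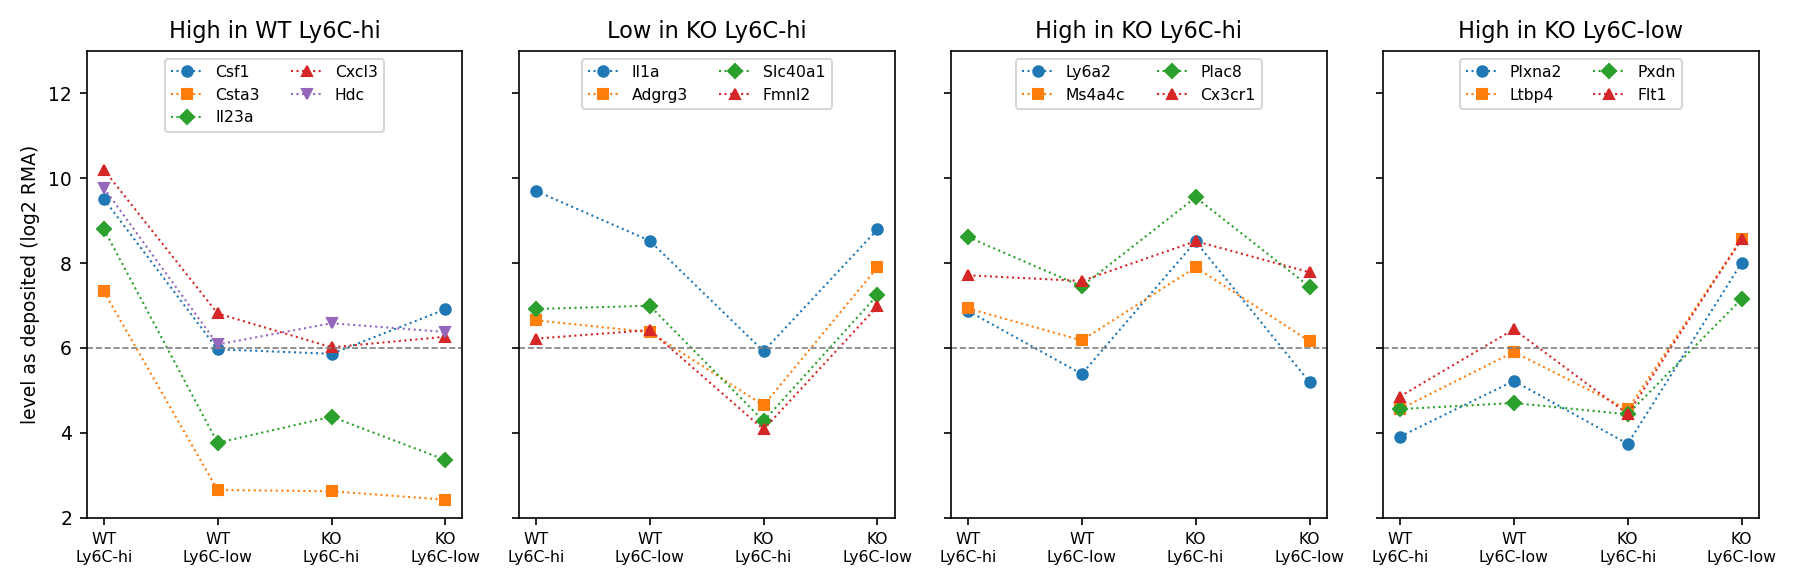
Levels as deposited (y axis, log2 RMA) of named genes in the 4 arrays (x axis), 1 point per gene and array, in 4 panels by the array that stands out, with dotted lines joining the points of a gene and a dashed line at the floor of log2 6. Il23a reads 8.80 in WT Ly6C-hi and 3.36 to 4.38 elsewhere, and Plxna2 reads 8.0 in labelled KO Ly6C-low and 3.74 to 5.22 elsewhere.

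Inflammatory mediators were 4 of the 10 named genes of most negative value: Csf1, Il1a, Il23a and Cxcl3. Csf1, the growth factor of the macrophage lineage, had the lowest value of all genes used, at -3.90. Its levels were 9.51, 5.97, 5.86 and 6.91, so that it was high in WT Ly6C-hi alone, with KO minus WT at -3.15 in Ly6C-hi and 0.75 in Ly6C-low. Cxcl3, a chemokine for neutrophils, was above the floor in all 4 arrays, at 10.20, 6.81, 6.02 and 6.26, and its difference of differences was -2.94. The 250 bases before the start of both genes are shown because each holds GGGA, any 4 bases and CC in a row, letters bound by the NF-kB family that drives many such mediators. The sequences are from RefSeq (GRCm38.p6), for Csf1 chr3:107760470-107760719 on the minus strand and for Cxcl3 chr5:90785851-90786100 on the plus strand, written 5′ to 3′ along the gene. Capitals mark matches on either strand.
Csf1: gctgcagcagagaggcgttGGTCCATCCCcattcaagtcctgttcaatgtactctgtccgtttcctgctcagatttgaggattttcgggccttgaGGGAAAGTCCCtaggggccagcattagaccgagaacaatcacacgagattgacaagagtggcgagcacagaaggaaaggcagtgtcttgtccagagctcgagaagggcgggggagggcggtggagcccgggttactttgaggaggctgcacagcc
Cxcl3: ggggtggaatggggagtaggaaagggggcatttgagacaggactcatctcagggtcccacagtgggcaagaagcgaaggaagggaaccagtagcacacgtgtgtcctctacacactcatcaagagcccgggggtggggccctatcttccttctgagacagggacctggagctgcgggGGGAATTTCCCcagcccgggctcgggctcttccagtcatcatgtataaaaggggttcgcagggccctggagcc
In Csf1 there were 3 matches, starting 231, 155 and 154 bases before the gene's start, the last pair overlapping. In Cxcl3 there were 2 overlapping matches, at 73 and 72 bases. The letters occurred in the promoters of 7 of the 12 mediators found in the RefSeq table (58.3%), against 25.9% of the genes used found there and 19.7% of all 27025 genes of the table. Among genes at -1 or less the share was 27%, close to that of the genes used. A match is a description of the sequence and not a site.

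Other mediators split by array. Il23a, a subunit of interleukin-23, read 8.80, 3.76, 4.38 and 3.36, so that only WT Ly6C-hi lay above the floor. Its difference of differences of -3.33 rests on 3 levels within the chemosensory range. Il1a, an alarm cytokine of the interleukin-1 family, read 9.70, 8.53, 5.92 and 8.79, and here the array that stood apart was labelled KO Ly6C-hi, at 2.41 under the nearest other after centring. Ptgs2, the inducible cyclooxygenase that supplies mPGES-1, read 10.85, 7.61, 7.26 and 6.47. It was lower under the KO label in both fractions, with KO minus WT at -3.09 in Ly6C-hi and -1.33 in Ly6C-low, which left a difference of differences of -1.77. Ccl2, the ligand of the monocyte receptor Ccr2, went the other way, at 7.96, 7.51, 7.65 and 6.62, with labelled KO Ly6C-low as the low array and a value of 1.28.

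Of 25 mediators with a probe set, 19 were used and 10 were above the floor in all 4 arrays. At -1 or less there were 5 (Csf1, Il1a, Il23a, Cxcl3, Ptgs2) and at +1 or more 1 (Ccl2), against 8.41% and 9.78% of all genes used. The list median was -0.47 against 0.03 for all genes used. The other 13 lay between -0.84 (Tnf) and 0.08 (Tnfsf9). Il1b, which encodes the main secreted interleukin-1, was lower under the KO label in both fractions (-1.67 and -1.18), so that its difference of differences was -0.49. Il6, Il12b, Il18, Csf3, Lif and Nos2 were under the floor in every array. With the floor in all 4 arrays 2 of 10 mediators were at -1 or less and 1 at +1 or more. All genes gave 4.6% and 7.74% there.

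Of 17 NF-kB subunits and feedback inhibitors used, 5 were at -1 or less and 1 at +1 or more (median -0.43). Over all genes used these shares were 8.41% and 9.78%. Some members, Nfkbie among them, passed the floor through WT Ly6C-hi alone and so had to differ between arrays. With the floor in all 4 arrays 2 of 8 were at -1 or less and 1 at +1 or more. At that floor all genes gave 4.6% and 7.74%. The inhibitor Nfkbie had the lowest value, -1.79, at 7.54, 4.42, 5.62 and 4.98. Nfkbid (-1.31) and Nfkbiz (-1.03), nuclear relatives of the inhibitors, were highest in WT Ly6C-hi too. Nfkbib, another inhibitor, lay at 1.15, and the subunit Rel at 0.60. Among 27 immediate early and stress genes 3 were at -1 or less and 1 at +1 or more, with a median of -0.13, near the shares of all genes used. Egr3 (-2.31) and Nr4a3 (-1.72), transcription factors induced by cell stimulation, were above the floor in WT Ly6C-hi alone, whereas Atf3, a stress-induced factor, lay at 1.09.

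WT Ly6C-hi also held the high value for single genes of other kinds, which were picked by their values. Ifitm1, an interferon-induced transmembrane protein, read 8.07, 4.77, 5.32 and 5.78 (-3.06), above the floor in WT Ly6C-hi alone. Cd69, an early activation antigen, read 9.67, 7.05, 6.55 and 6.71 (-2.09). Cd80, a costimulatory ligand for T cells, read 10.05, 7.40, 6.75 and 6.65 (-1.87), while its relative Cd86 (1.02) was highest in labelled KO Ly6C-hi. Icam1, a ligand of leukocyte integrins, read 8.62, 6.22, 6.70 and 7.05 (-2.06), and Cd69, Cd80 and Icam1 were above the floor in every array. In the repair macrophage list 4 of 15 members were at -1 or less, where 8.41% of all genes used lay, and none at +1 or more. Il1rn, the interleukin-1 receptor antagonist (-1.25), and the growth factor Vegfa (-1.20) were high in WT Ly6C-hi. Of 13 hypoxia and glycolysis genes 4 were at -1 or less, against the same 8.41%. Among them were the oxygen sensor Egln3 (-1.22) and the lactate exporter Slc16a3 (-1.09). Egln3 passed the floor through WT Ly6C-hi alone, and with the floor in all 4 arrays 1 of 8 was at -1 or less. Slc7a11, the cystine importer, read 10.04, 5.91, 6.45 and 4.73 (-1.72), with KO minus WT at -3.08 and -1.37.

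Neutrophil genes had the lowest median among lists with at least 5 genes used, at -1.40 over the 21 of 26 that were used. Of these, 8 were set apart by a high WT Ly6C-hi value (3.52% of all genes used). At -1 or less there were 13 and at +1 or more 1, against 8.41% and 9.78% of all genes used. Only 5 were above the floor in all 4 arrays, and a gene that passed the floor through WT Ly6C-hi alone had to differ between arrays, so this median describes the list and supports nothing. Over those 5 alone, on arrays centred at that floor, the median was 0.03. Csta3, a stefin of granulocytes, read 7.33 in WT Ly6C-hi and 2.43 to 2.65 in the other 3 arrays (-3.79). Stfa2l1, a related stefin, read 8.34, 3.0, 4.92 and 3.46 (-3.18). Hdc, which makes histamine, was above the floor in every array, at 9.77, 6.08, 6.58 and 6.38 (-2.79). For Csta3, Stfa2l1 and Hdc alike the high value was WT Ly6C-hi.

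The granulocyte receptors Il1r2 (-2.41), Cxcr2 (-1.40), Trem1 (-1.32) and Csf3r (-1.26) were lower under the KO label in both fractions, and by more in Ly6C-hi. The calprotectin subunits differed from them: S100a8 had KO minus WT at -0.88 in Ly6C-hi against -1.21 in Ly6C-low, and S100a9 at -0.39 and -0.95, which gave differences of differences of 0.34 and 0.56. The collagenase Mmp8 lay at -1.02 and -1.67, Retnlg at -0.81 and -0.93, and neither was past 1. The neutrophil list was thus not of one kind: the named stefins and the receptors Il1r2, Cxcr2, Trem1 and Csf3r lay at the negative end, and calprotectin and Mmp8 on the positive side of 0. Its only member at +1 or more was the receptor Mrgpra2b (2.33), low in WT Ly6C-hi. Summed over all 26 genes the level was 14.09, 10.47, 11.90 and 10.00 on the log2 scale, highest in WT Ly6C-hi. All 8 defining markers reached the floor in WT Ly6C-hi, and their part in the inflammatory genes above was not tested. In arrays of sorted fractions, fewer cells of a type and less RNA per cell cannot be told apart.

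A small group was low in labelled KO Ly6C-hi. Slc40a1, the iron exporter ferroportin, read 6.92, 7.0, 4.28 and 7.25, so that 3 arrays lay together and this array was low (-2.19). Fmnl2, a regulator of actin filaments, read 6.22, 6.42, 4.08 and 6.98 (-2.01). Adgrg3, an adhesion receptor of myeloid cells, read 6.65, 6.38, 4.65 and 7.90 (-2.83), with KO minus WT at -1.5 in Ly6C-hi against 1.33 in Ly6C-low. The low level of all 3 lay within the chemosensory range, so the sizes are uncertain. Slc25a37, the mitochondrial iron importer, was above the floor throughout, at 7.99, 6.55, 6.29 and 8.08 (-2.53), and was crossed: WT Ly6C-hi and labelled KO Ly6C-low were high, the other 2 arrays low. Of 9 iron and heme genes 2 were at +1 or more (9.78% of all genes used) and 1, Slc40a1, at -1 or less (8.41%). Blvra, a biliverdin reductase, lay at 1.37 and Hmox1, the heme-degrading enzyme, at 1.34 (7.89, 8.04, 7.35 and 6.85), low in labelled KO Ly6C-low.

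Many inflammatory monocyte genes were high in labelled KO Ly6C-hi. Ly6a2, a gene of the Ly6 family, read 6.87, 5.38, 8.51 and 5.20 and had a difference of differences of 2.51. Ms4a4c, a membrane protein of monocytes, read 6.93, 6.18, 7.90 and 6.16 (1.68). Plac8, a marker of Ly6C-hi monocytes, read 8.61, 7.45, 9.55 and 7.44 (1.64). In these 3 genes KO minus WT in Ly6C-low was small, at -0.38, -0.21 and -0.20, and the labelled KO Ly6C-hi array stood above the rest. For Ly6a2 both Ly6C-low levels lay within the chemosensory range, so a genotype difference there could hardly show. Ccr2, the receptor for exit from bone marrow, read 8.28, 7.48, 9.06 and 7.78 (1.17), and Cx3cr1, the fractalkine receptor, 7.71, 7.58, 8.52 and 7.78 (1.29).

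Of 18 monocyte genes used, 11 were at +1 or more (9.78% of all genes used) and none at -1 or less, with a median of 1.26. KO minus WT had a list median of 0.91 in Ly6C-hi against -0.26 in Ly6C-low. The count moved with centring: without it 1 of 18 was at +1 or more, where 3.09% of all genes used were. With quantile normalisation it was 11 (8.05% of all genes used), and with lowess 9 (8.74%). Less the median gene, the list median was 1.235 both with and without centring. Centring shifts every gene alike, so this value could not change and is no check of the count. The floor bore on the count less, since 14 of the 18 were above log2 6 in every array. Under that stricter floor 8 of those 14 were at +1 or more, against 7.74% of all genes. F13a1 (1.58), a coagulation factor subunit, differed in shape, since KO minus WT was 0.64 in Ly6C-hi and -0.94 in Ly6C-low. At the other end were Gsr (-0.71), which reduces glutathione, and the lectin Clec4e (-0.64), both high in WT Ly6C-hi. Ly6c2 itself lay at 1.44. In the oxidative burst list 1 of 10 genes was at +1 or more (9.78% of all genes) and 2 at -1 or less (8.41%). Cybb, the catalytic subunit of the phagocyte oxidase, shared the positive sign (9.32, 9.35, 9.85 and 8.92; 1.66), while Ncf1 (-1.11) and the formyl peptide receptor Fpr2 (-1.98) were high in WT Ly6C-hi.

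Endothelial genes made up the other negative group, and they were high in labelled KO Ly6C-low. Stab2, a scavenger receptor of sinusoidal endothelium, read 5.24, 8.64, 4.63 and 10.61, with KO minus WT at -0.11 in Ly6C-hi and 1.78 in Ly6C-low (-1.89). Flt1, a receptor for vascular endothelial growth factor, read 4.86, 6.44, 4.44 and 8.56 (-1.84). The 250 bases before both starts are shown because each holds AGGAAG, a core bound by ETS factors, a family that includes regulators of endothelial and myeloid genes. They are RefSeq sequence (GRCm38.p6), for Stab2 chr10:87007943-87008192 and for Flt1 chr5:147726012-147726261, both on the minus strand and written 5′ to 3′ along the gene, with capitals at matches on either strand.
Stab2: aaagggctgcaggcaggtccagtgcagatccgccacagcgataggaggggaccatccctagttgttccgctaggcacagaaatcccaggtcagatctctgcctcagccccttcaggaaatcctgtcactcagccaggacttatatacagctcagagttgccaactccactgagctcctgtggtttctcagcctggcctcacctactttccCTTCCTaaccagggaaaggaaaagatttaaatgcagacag
Flt1: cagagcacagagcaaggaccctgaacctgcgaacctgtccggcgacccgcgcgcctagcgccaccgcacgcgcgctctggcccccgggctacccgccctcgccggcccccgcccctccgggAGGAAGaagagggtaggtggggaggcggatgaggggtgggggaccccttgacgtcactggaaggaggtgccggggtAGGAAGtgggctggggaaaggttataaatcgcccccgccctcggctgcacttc
The match lies 40 bases before the start of Stab2, and in Flt1 the matches lie at 129 and 53 bases. Of 16 sinusoidal endothelial genes in the RefSeq table, 9 held AGGAAG (56.2%), against 34.9% of the genes used and 32.3% of all genes there. Neutrophil genes, a list with another profile, held it in 13 of 20 (65%).

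Of 28 sinusoidal endothelial genes 26 were used, 17 were at -1 or less (8.41% of all genes used) and none at +1 or more, with a median of -1.25. The list median of KO minus WT was 0.08 in Ly6C-hi and 1.27 in Ly6C-low. Most of the 26 were under the floor in both Ly6C-hi arrays and were used through a Ly6C-low array. A genotype difference in Ly6C-hi could therefore hardly show, and these medians only describe the list. Bmp2, the iron-regulating ligand made by sinusoidal endothelium, read 3.37, 5.20, 2.69 and 7.60 (-2.38). The phosphatase Ptprb read 5.96, 8.88, 4.79 and 10.72 (-2.32), and the clotting factor F8 read 4.59, 8.27, 3.24 and 9.74 (-2.12). In the Ly6C-hi arrays these levels lay within the chemosensory range, except Ptprb in WT Ly6C-hi. Just 2 of the 26 genes were above the floor in all 4 arrays: Ehd3 (-0.86) and the Fc receptor Fcgr2b (0.44), and a median over these 2 was -0.30 on arrays centred at that floor. Lyve1 (0.33), a hyaluronan receptor, and Fcgr2b were the only members of the 26 with a positive value. Summed over 28 genes the endothelial level was 10.44, 13.28, 10.16 and 14.52, highest in labelled KO Ly6C-low. The part of that summed level in the values of these and the related genes that follow was not tested.

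Receptors and guidance genes showed the same array as high. Of 20 used, 12 were at -1 or less (8.41% of all genes used) and none at +1 or more (median -1.29). Just 3 were above the floor in all 4 arrays, Plxnd1, Notch1 (-1.44) and Nrp1 (-0.70), and genes that passed through labelled KO Ly6C-low alone had to differ, so the count and median are a description. Several are also on the sinusoidal list. Plxna2, a semaphorin receptor, read 3.91, 5.22, 3.74 and 8.0 (-2.26), high in 1 array alone. Plxnc1, the semaphorin receptor shared with myeloid cells, had the lowest value of the list (-3.08) at 7.46, 7.97, 5.69 and 9.97, low in labelled KO Ly6C-hi and high in labelled KO Ly6C-low. Plxnd1, above the floor in all arrays, read 6.13, 6.69, 6.06 and 8.92 (-1.61). Flt4 (-1.82), Tek (-1.67), Kdr (-1.33) and Robo4 (-1.31) were alike in sign, and Robo1 (0.32) and Sema3f (0.08) were not. Of 8 basement membrane and matrix genes used, 5 were at -1 or less and 1, Fn1, at +1 or more. Over all genes used these shares were 8.41% and 9.78%. Of the 8, 5 passed the floor through labelled KO Ly6C-low alone and so had to differ, and with the floor in all 4 arrays Fn1 was the only member left. Ltbp4, which stores latent transforming growth factor beta, read 4.56, 5.90, 4.55 and 8.56 (-1.97). Pxdn, which cross-links collagen IV, read 4.56, 4.70, 4.44 and 7.15 (-1.88). Nid1, a basement membrane linker, lay at -2.11 by its brighter probe set and at -0.32 by the other. A further 11 matrix genes with a probe set, Col4a1 and Col4a2 among them, were under the floor in every array.

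The plot of list members orders the lists by median. Kupffer cell genes were split: of 11 used, 2 were at +1 or more and 3 at -1 or less. Over all genes used the shares were 9.78% and 8.41%. Vsig4, a complement receptor of resident macrophages (3.78, 7.15, 3.10 and 5.85; 1.31), and Clec4f, a Kupffer cell lectin (5.06, 6.54, 4.76 and 5.91; 1.02), were highest in WT Ly6C-low, as were Folr2 (0.81) and Cd5l (0.79). Vsig4, Clec4f and Cd5l passed the floor through WT Ly6C-low alone, so that array had to be their highest as deposited. Slc40a1 (-2.19), Clec1b (-1.79) and Cdh5 (-1.68), the last of which is also an endothelial cadherin, lay at the other end. Marco, Timd4, Cd163 and Spic were under the floor. With the floor in all 4 arrays 2 Kupffer genes were left, and none was past 1. With the deposited values uncentred the median of the Kupffer list turned from 0.42 to -0.28, where the median gene was at -0.67. Less the median gene, the Kupffer median turned from 0.39 to -0.42 at a floor of log2 7. Of 14 hepatocyte genes 4 were at +1 or more and none at -1 or less, against the same shares. The regulator Hnf4a lay at 1.59, the enzyme Cyp2e1 at 1.16 and Alb at 0.36. Of those at +1 or more, Hnf4a and Cps1 passed the floor through WT Ly6C-low alone, and Serpina1a through the Ly6C-low arrays only. With the floor in all 4 arrays 1 of 8 hepatocyte genes was at +1 or more, where 7.74% of all genes lay. Hepatocyte genes had a median of 0.52, which turned to -0.17 without centring, where the median gene was at -0.67. Their summed level was 11.60, 12.55, 11.27 and 12.41, higher in both Ly6C-low arrays. Of 6 stellate cell genes used 2 were at +1 or more, against the same 9.78%. These were Rgs5 (1.78) and Lrat (1.24), both above the floor in the Ly6C-low arrays only.

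**Figure D3:**
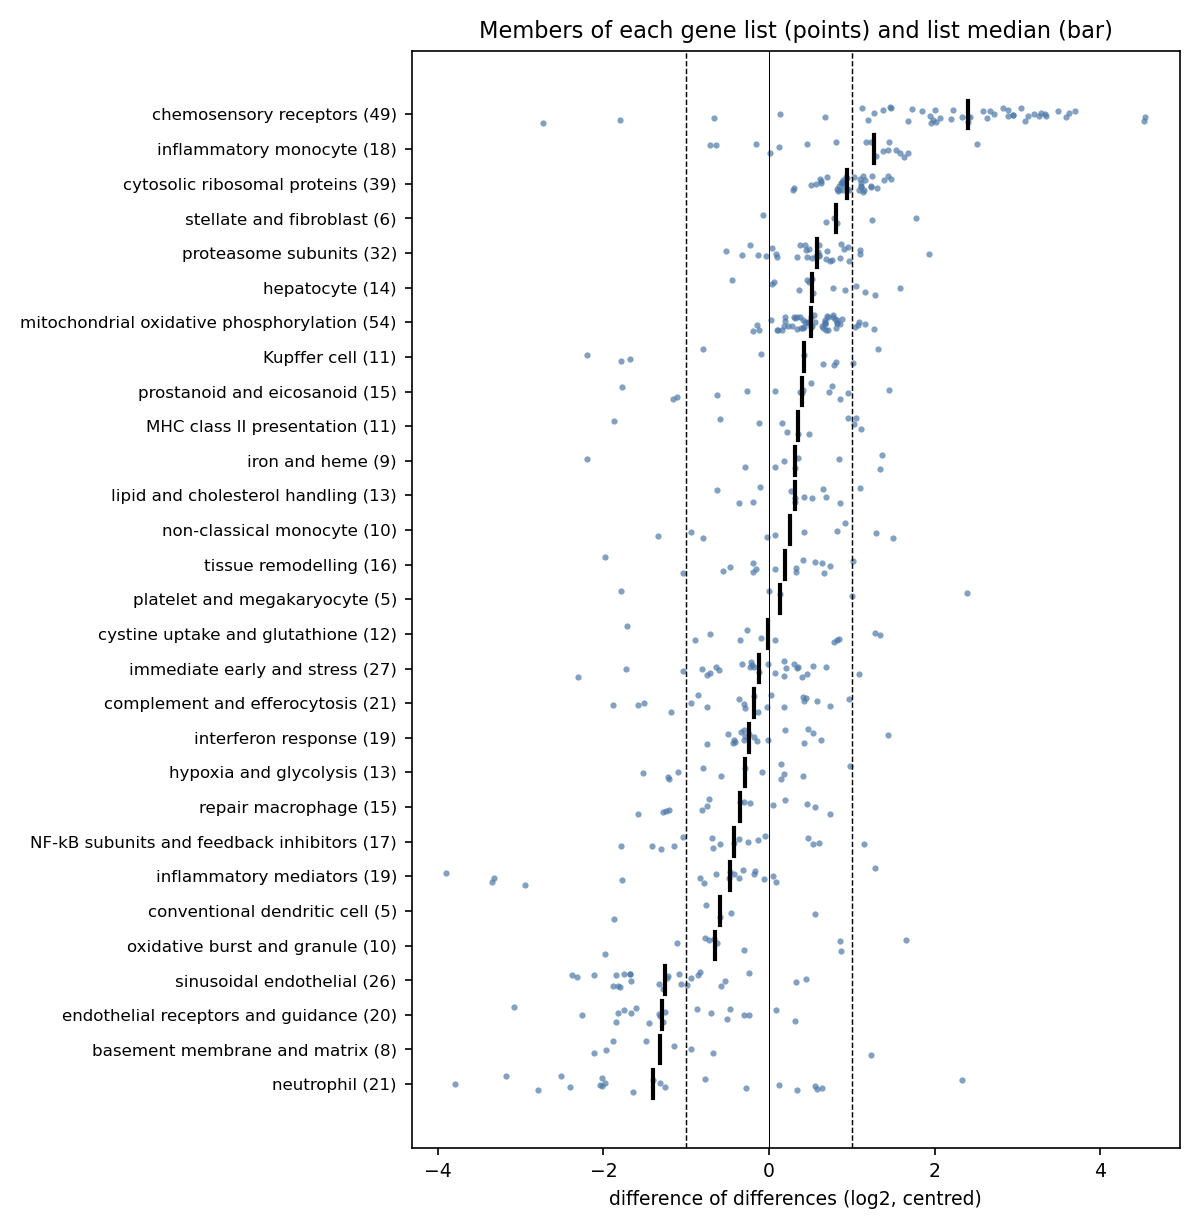
Difference of differences (x axis, log2 after centring) of the members of each gene list with at least 5 genes used (y axis, number used in brackets). Points are genes, black bars the list medians and dashed lines +1 and -1; neutrophil genes have a median of -1.40 and inflammatory monocyte genes of 1.26.

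Lists of other cells held few genes above the floor. Cholangiocyte and erythroid genes had none. Of 3 natural killer genes, Gzma, a granzyme, read 7.5, 4.97, 5.27 and 5.45 (-2.01), Il2rb lay at -1.10 and Nkg7 at 0.23. Itgax, an integrin of dendritic cells and some macrophages, lay at -1.87, highest in WT Ly6C-hi and lowest in labelled KO Ly6C-hi (8.09, 6.77, 5.85 and 7.10), and the other 4 dendritic cell genes used were between -0.76 and 0.55. Siglecf, a lectin of eosinophils, read 7.53, 4.69, 5.18 and 4.71 (-1.67), and Kit, a growth factor receptor, 5.11, 7.09, 4.32 and 8.72 (-1.73). Gzma and Siglecf were high in WT Ly6C-hi, and Kit in labelled KO Ly6C-low. Gzma, Il2rb, Nkg7 and Siglecf passed the floor through WT Ly6C-hi alone, so that array had to be their highest as deposited. The 3 plasmacytoid dendritic cell genes used lay between 0.22 and 0.54. Il7r was the only T cell gene above the floor (0.33), and the B cell genes Ighm and Cd79b lay at -0.62 and -0.50. Of 5 platelet genes Gp9 lay at 2.39, Clec1b at -1.79 and Pf4 at 0.14. Gp9 passed the floor through labelled KO Ly6C-hi alone.

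Few genes at either end were above the floor in all 4 arrays: 16 of the 111 at +2 or more and 7 of the 55 at -2 or less. Among chemosensory receptors 49 of 1443 reached the floor, 44 of them at +1 or more and 2 at -1 or less, with a median of 2.40. Over all genes used 9.78% and 8.41% lay past these cuts. The 49 were picked by their highest array, and 3 were above the floor in all 4, so these values are a description. Less the median gene the list lay at 2.38 over the 49, and at 0.39 over all 1443 with no floor. KO minus WT had a list median of 1.64 in Ly6C-hi against -0.73 in Ly6C-low, and 32 of the 49 were crossed. Olfr1302, an odorant receptor, read 3.62, 6.63, 6.22 and 5.38 and had the highest value of all genes used, 4.54. Olfr1170 read 5.60, 8.17, 8.45 and 7.18 (4.53). Both were low in WT Ly6C-hi. Of the 111 genes, 32 were chemosensory and 85 in all carried symbols left out of naming, such as predicted genes. The highest array was labelled KO Ly6C-hi in 100 of the 111 and WT Ly6C-low in 11. The lowest was WT Ly6C-hi in 98 and labelled KO Ly6C-low in 13. A large positive value by its definition favours these arrays at those ends, so the counts partly restate how the genes were picked. Over all 1443 chemosensory genes the level was lowest in WT Ly6C-hi and highest in labelled KO Ly6C-hi, with medians of 2.46, 2.77, 2.86 and 2.61. The part of that level in the positive values was not tested.

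All 10 genes named for the most positive values, Ly6a2 among them, were highest in labelled KO Ly6C-hi, an array that a positive value by definition favours. AY358078 read 5.59, 6.21, 7.19 and 5.36 (3.15), Astx5, of an X-linked spermatid gene family, 5.79, 6.84, 7.47 and 6.15 (3.07), and Gip, an incretin hormone, 5.40, 6.35, 6.77 and 5.68 (2.73). Pla2g10os (2.76), Csprs (2.73), Srsy (2.54), Rtkn2 (2.51) and Pramel24 (2.45) also lay between 4.46 and 7.16 in all 4 arrays, and Scgb1b3 (2.53) was higher, at 8.28, 8.92, 9.54 and 8.35. Csprs, Astx5 and Srsy belong to multicopy families whose copies share sequence, so their identity is uncertain. Other probe sets of Csprs gave 1.62 and 0.12, and of Rtkn2 1.5 and 0.60. Among genes above the floor in all 4 arrays, the highest after Scgb1b3 were Selenbp1, a selenium-binding protein (6.11, 7.16, 6.85 and 6.55; 2.05), the mitochondrial ND6 (8.40, 9.66, 8.70 and 8.75; 1.91), Tifab (1.89) and Gstp2, a glutathione transferase (1.83). Tifab, a regulator of innate signalling, was high in labelled KO Ly6C-hi, and ND6 in WT Ly6C-low.

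Highly expressed genes leaned to positive values. Among the 209 genes with a mean level of at least log2 9 the median was 0.56, with 21.1% at +1 or more and 0.478% at -1 or less. Among the 2187 genes between 6 and 7 it was 0.02, with 8.23% and 7.59%. Cytosolic ribosomal proteins were all positive after centring: the 39 used lay between 0.29 and 1.48, 17 were at +1 or more and the median was 0.94. Rps13 read 10.06, 10.87, 10.24 and 10.27 (1.48), and Rpsa 7.65, 8.29, 8.23 and 8.12 (1.44). The plot by level shows them on the side of the upward lean of the genes at high level. Their median was above the 0.56 of the genes at log2 9 or more. No ribosomal gene was at +1 or more without centring, when their median was 0.24, and 4 were after lowess, which removes a trend with level (median 0.59). Proteasome subunits (median 0.58, Psmb3 at 1.94) and oxidative phosphorylation subunits (median 0.51, Uqcr11 at 1.27) had positive medians, but with 3 of 32 and 5 of 54 at +1 or more their shares were near the 9.78% of all genes used. The medians of these last lists became negative without centring, at -0.12 and -0.18, where the median gene was at -0.67.

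**Figure D4:**
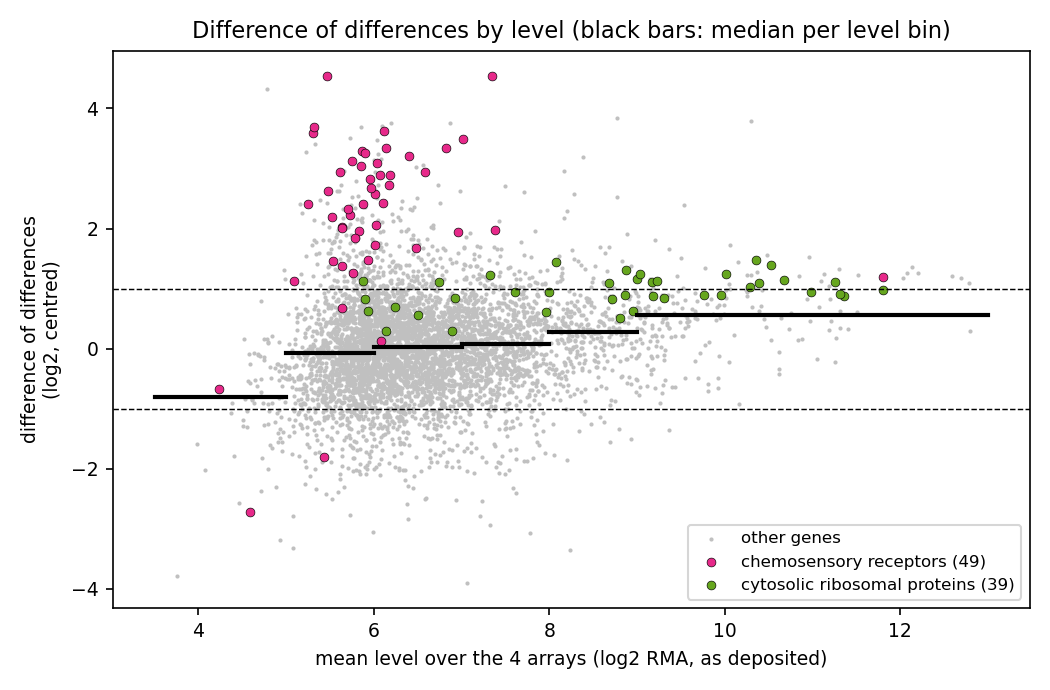
Difference of differences (y axis, log2 after centring) against the mean level over the 4 arrays (x axis, log2 RMA as deposited), 1 point per gene. Black bars are the medians of 6 level bins, from -0.81 under log2 5 to 0.56 at log2 9 and above, and dashed lines mark +1 and -1.

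Apart from the genes high in labelled KO Ly6C-low, few were set apart by a Ly6C-low array. Fabp7, a fatty acid binding protein, read 6.23, 7.70, 5.44 and 6.21, high in WT Ly6C-low (1.40), as were Lrp12 (1.60) and the hepatocyte enzyme Mat1a (1.09). Ddx5, an RNA helicase, was low there, at 8.71, 6.24, 7.49 and 7.74 (-2.03), as was Atrnl1 (-1.44). Ppan, a ribosome assembly factor, was low in labelled KO Ly6C-low, at 6.23, 5.88, 5.53 and 4.06 (1.81), and so was Gpr31b (1.71). The zinc finger gene Zbtb39 read 6.18, 5.87, 4.78 and 7.16 (-2.0), high in labelled KO Ly6C-low. Low values set WT Ly6C-hi apart for Mrgpra2b (5.44, 6.94, 6.71 and 6.56; 2.33), opposite in sign to its paralogue Mrgpra2a (9.25, 4.99, 6.59 and 5.52; -2.51), and for Cldn34b2 (1.82) and Nicn1 (1.77). Close paralogues can share probe sequence, so which of the Mrgpra2 pair was measured is uncertain.

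Prostanoid and eicosanoid genes were mixed, with 1 of 15 at +1 or more and 3 at -1 or less. Over all genes used these shares were 9.78% and 8.41%. Hpgd, which inactivates prostaglandin E2, read 5.35, 8.04, 6.21 and 8.16, higher under the KO label in Ly6C-hi by 1.37 and near level in Ly6C-low (1.45). Slco2a1, the prostaglandin importer, read 5.17, 7.53, 5.24 and 9.41 (-1.11), high in labelled KO Ly6C-low as the endothelial genes were. Alox5, which makes leukotrienes, lay at -1.16 by one probe set and at 0.23 by another of low level. The prostaglandin E2 receptors Ptger2 (0.07) and Ptger4 (0.51) were not past 1. Ptges itself lay at 0.86.

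The remaining lists are given against the 18.2% of all genes used that were past 1 in either direction. Of 11 genes of class II antigen presentation 3 were at +1 or more, Ifi30, Ctss and Cd86, at 1.02 to 1.11, and 1, Cd80, at -1 or less. The class II chains H2-Aa (0.22), H2-Ab1 (0.15) and H2-Eb1 (-0.12) were higher under the KO label in both fractions after centring. Interferon response genes held 1 of 19 past 1, Ifit3 (1.44), and a median of -0.24. Of 21 complement and efferocytosis genes 4 were at -1 or less and none at +1 or more, with Stab2, Stab1 (-1.58), Tgm2 (-1.5) and the receptor kinase Mertk (-1.18), which clears dying cells. Of 13 lipid handling genes only Npc2 (1.10) was past 1. Of 10 non-classical monocyte genes Apoc2 (1.5) and Cx3cr1 were at +1 or more and Fabp4, a lipid-binding protein of macrophages and endothelium, at -1 or less (8.18, 10.44, 6.13 and 10.43; -1.35). Of 16 remodelling genes 1 was at +1 or more (Tgfbi, 1.01) and 2 at -1 or less (Mmp9, -1.98, and Timp3, -1.04). Of 12 cystine and glutathione genes 2 were at +1 or more and 1 at -1 or less. None of 3 cell cycle genes was past 1.

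The split of genes past 1 into positive and negative moved with the scaling, as the plot of counts by processing shows. It was 519 against 446 as reported, 125 against 2264 with centring on all genes with 1 symbol, 427 against 673 with quantile normalisation and 464 against 428 with lowess. Lowess kept 450 of the 519 positive and 399 of the 446 negative genes. With the floor demanded in all 4 arrays the split was 190 against 113.

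**Figure D5:**
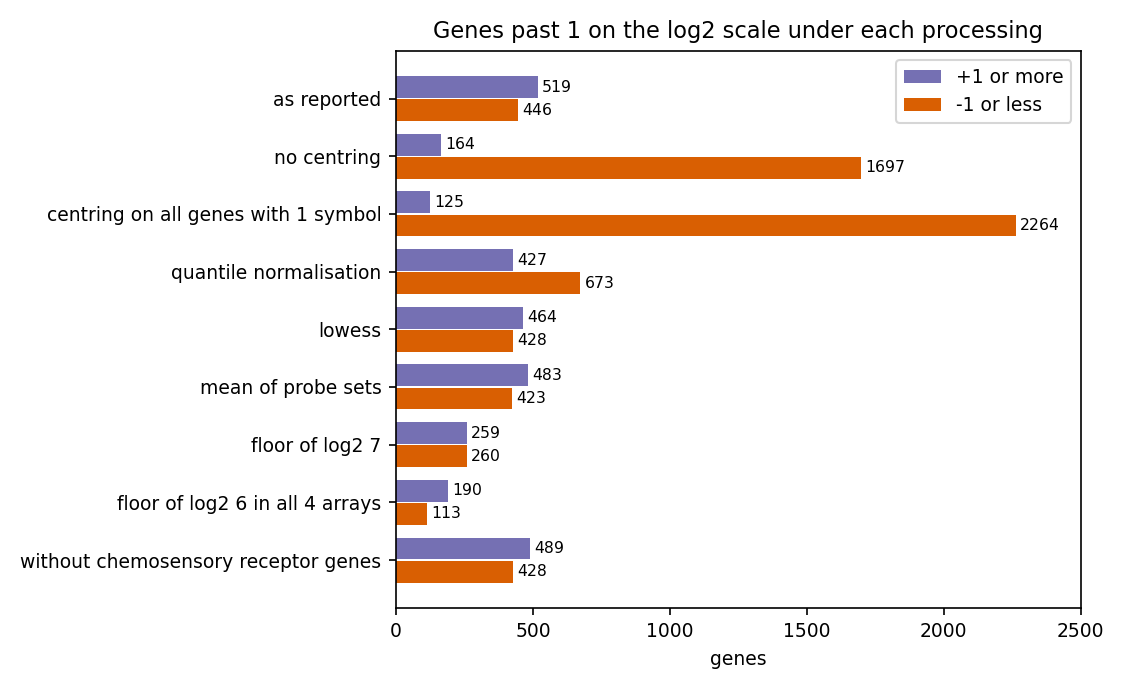
Number of genes (x axis) with a difference of differences of +1 or more (purple) and -1 or less (orange) on the log2 scale under each processing (y axis). The bars are 519 and 446 as reported, and 164 and 1697 without centring.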

How the data were processed

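Gene expression of 4 samples, 1 array each, was taken from the deposited gene-level values, which the authors made as log2 RMA values in Expression Console, per the labels, and the submitters' processing notes also name RMA. RNA was isolated with TRIzol and 5 ng was labelled with the WT Pico kit, per the labels' protocols. The sources used here give no software versions and no annotation build. Of 41345 probe sets, 23521 had 1 symbol in the platform annotation, 1814 several and 16010 none. By Entrez ID 23328 of the 23521 matched the RefSeq gene table (GRCm38.p6), and 193 kept the annotation's symbol. They stand for 22180 genes. For the 1082 genes with several probe sets the brightest by 4-array mean was used.

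Each array was centred on the median of the 5306 genes at log2 6 or more in at least 1 array, and the difference of differences was taken from the centred values. No test was made, since 1 array per group leaves no residual degree of freedom, and precision is limited by having 4 arrays. Sizes of 1 and 2 on the log2 scale mark 2-fold and 4-fold. Members of 37 gene lists were counted among the genes used. The lists, the members and the rules were chosen with earlier results of these data known.

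Named genes were Ptges, Ly6c1 and Ly6c2, the 10 most positive and 10 most negative genes, the 5 most positive and 5 most negative among genes above the floor in all 4 arrays, the 4 of largest size in each class set apart by 1 array and in each list, and those next to +1 and -1. Chemosensory, predicted, RIKEN, small RNA, pseudogene, immunoglobulin and T cell receptor symbols were left out of the most positive and most negative genes. Further list members named were chosen after their values were seen. Motifs were searched on both strands in the 250 bases before each start in the RefSeq promoter table, which held 4223 of the 5306 genes. Steps ran in Python 3.11.15 with numpy 2.4.6, pandas 2.3.3, statsmodels 0.14.6 and matplotlib 3.10.9, and were tested on simulated data. Alternatives changed the centring, normalisation, probe set rule, floor, gap rule and the chemosensory genes.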

Additional observations from a re-analysis of the deposited data

Results flagged for a closer look

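For the genes below, KO minus WT was at least 0.5 in opposite directions in the Ly6C-hi and Ly6C-low fractions. With 1 array per group the difference between the fractions was not tested, and 305 of the 5306 genes used (5.75%) met the same description. Values in brackets are differences of differences on the log2 scale after centring.

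Lower under the KO label in Ly6C-hi and higher in Ly6C-low were the inflammatory and activation genes Csf1 (-3.90), Ifitm1 (-3.06), Icam1 (-2.06) and Tnip1 (-1.42). Plxnc1 (-3.08), Ptprb (-2.32) and F8 (-2.12) of the endothelial lists had the same signs. So did Stab1 (-1.58) and Mertk (-1.18) of the complement and efferocytosis list, and Clec1b (-1.79) of the Kupffer and platelet lists. Adgrg3 (-2.83), Slc25a37 (-2.53), Ddx5 (-2.03) and Zbtb39 (-2.0) shared them too.

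The opposite signs, higher in Ly6C-hi and lower in Ly6C-low, were seen for the myeloid genes F13a1 (1.58), Cybb (1.66), Apoc2 (1.5) and Atf3 (1.09). Ribosomal, proteasome and mitochondrial genes of this kind were Rps13 (1.48), Psmb3 (1.94), Ndufa9 (1.16) and ND6 (1.91). The parenchymal, stellate and redox genes were Hnf4a (1.59), Rgs5 (1.78), Lrat (1.24), Blvra (1.37), Selenbp1 (2.05) and Gstp2 (1.83). The remaining single genes were AY358078 (3.15), Astx5 (3.07), Gip (2.73), Srsy (2.54), Scgb1b3 (2.53), Rtkn2 (2.51), Pramel24 (2.45), Mrgpra2b (2.33) and Nicn1 (1.77). The chemosensory receptors Olfr1302 (4.54), Olfr1170 (4.53), Vmn1r158 (3.70) and Olfr485 (3.63) had the same signs, and over the 49 chemosensory genes used the median was 2.40, with list medians of 1.64 in Ly6C-hi against -0.73 in Ly6C-low. These 49 were picked by the floor, and less the median gene the list lay at 2.38 over them against 0.39 over all 1443 with no floor.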

How the results depend on the processing

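Counts at +1, -1, +2 and -2 are given in that order, and were 519, 446, 111 and 55 as reported. They became 164, 1697, 46 and 235 without centring, and 125, 2264, 36 and 363 with centring on all genes with 1 symbol. With quantile normalisation 673 genes lay at -1 or less and 119 at -2 or less. A floor of log2 5 gave 1063 genes at +1 or more, 870 at -1 or less and 115 at -2 or less, over 9366 genes. A floor of log2 7 gave 259, 260, 44 and 34 over 2569 genes, and the floor in all 4 arrays gave 190, 113, 13 and 8 over 2455. With no floor 805, 3263 and 421 genes lay at +1 or more, -1 or less and -2 or less, over 22180.

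The share of crossed genes, 5.75% as reported, was 10.3% without centring, 14.4% with centring on all genes and 3.1% with the floor in all 4 arrays, where 5.61% of the genes past 1 were held by Ly6C-low alone. The share set apart by high WT Ly6C-hi values, 3.52% as reported, was 8.16% without centring, 10.4% with centring on all genes, 2% with the floor in all 4 arrays and 7.43% with a gap of 0.5. For low WT Ly6C-hi values it was 0.245% without centring and with quantile normalisation, 0.188% with centring on all genes, 0.342%, 0.428% and 0.122% with floors of 5, of 7 and in all 4 arrays, 0.131% with no floor, 4.13% with a gap of 0.5 and 1.41% with no demand on the other 3 arrays. For high labelled KO Ly6C-hi values it was 0.151% without centring, 0.132% with centring on all genes, 1.13% at a floor of 7, 0.117% with no floor and 3.26% with a gap of 0.5. For high labelled KO Ly6C-low values it was 2.56% without centring, 2.86% with centring on all genes, 0.773% with lowess, 0.163% with the floor in all 4 arrays, 2.92% with a gap of 0.5 and 3.13% with no demand on the other 3 arrays.

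List medians less the median gene changed sign under at least 1 of 7 alternatives in 12 of 35 lists. Among the 7, no centring and centring on all genes shift every gene alike and could not change such a sign. With lowess the class II, iron and heme, platelet and remodelling lists turned to -0.043, -0.06, -0.014 and -0.05. With a floor of 7 the Kupffer, hypoxia and cell cycle lists turned to -0.42, 0.05 and 0.45, and with the floor in all 4 arrays the oxidative burst, non-classical monocyte, cystine and cell cycle lists turned to 0.67, -0.12, 0.15 and 0.23. With quantile normalisation the T cell and cystine lists turned to -0.066 and 0.013. The basement membrane list lay at 1.04 with the floor in all 4 arrays, where 1 member was left, Fn1. It lay at -1.93 with quantile normalisation and -0.45 with no floor. Chemosensory genes lay at 1.69, 3.10 and 1.75 with floors of 5, of 7 and in all 4 arrays, and at 0.39 with no floor. With the floor in all 4 arrays neutrophil genes lay at -0.069 (5 genes) and endothelial genes at -0.40 (2 genes). With no floor these were -2.06 and -1.99, and the monocyte, ribosomal and endothelial receptor lists lay at 0.48, 0.14 and -2.02. Of 814 values of named genes over the alternatives 357 moved by more than the tolerance and none changed sign while past 1. No centring and centring on all genes, which shift every gene alike, moved 164 each. Their shift was under 1 in size, so they could not change the sign of a gene past 1. Smaller values could change sign, as Il7r did from 0.33 to -0.36 without centring. Quantile normalisation moved 21, lowess 4 and the mean of probe sets 4. Apart from that common shift and from fewer or more genes entering at each floor, the cause of these shifts was not tested. Levels near the chemosensory range limit the sizes at the low end.

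No paired analysis was possible because each group holds 1 array and the labels give no replicate numbers, and without any 1 array the difference of differences has no value.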

Other observations

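Probe sets without a gene name leaned to the positive side. Of 3150 probe sets with no symbol that reached log2 6 in at least 1 array, 1227 were at +1 or more (39%) and 380 at -1 or less (12.1%). Of 612 with several symbols, 301 were at +1 or more (49.2%) and 28 at -1 or less (4.58%). For the named genes used, these shares were 9.78% and 8.41%.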
